A study of Mus musculus with 6 samples.

Results

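Angiogenin (Ang), Rnase4, the ribonuclease inhibitor gene Rnh1 and both mouse copies of the RNase T2 gene, Rnaset2a and Rnaset2b, were followed in cultured primary microglia. These 5 genes, of the 41079 listed by symbol in the deposited tables, were chosen by name, and they were selected on the change between optimized and control cultures seen earlier in the same libraries. Their differences between conditions are therefore given as a description, without a test.

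RNA was sequenced from 3 control and 3 optimized libraries of microglia from brains of C57Bl/6N mice aged 1 to 3 days. In both groups the cells were shaken off mixed glial flasks that had been fed L-929 conditioned medium, and each flask pooled the brains of more than 1 pup. Control cells were kept in serum-free DMEM/F12, and optimized cells in the same medium with human TGFbeta, IL34 and CX3CL1 at 100 ng/mL each. The methods of the study add cholesterol, insulin-transferrin-selenium and a collagen IV coating to the optimized group, so the RNA-seq contrast is that of all these components together. The labels do not say whether libraries of a group came from separate cultures, while the study calls them biological replicates. The p-values below measure the spread between these libraries.

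Ang and Rnase4 are secreted, pyrimidine-preferring ribonucleases of the RNase A family, encoded on mouse chromosome 14 and transcribed from common promoters into separate coding exons. Angiogenin is known for inducing vessel growth, for cutting tRNAs at the anticodon loop under stress and for acting on motor neurons, and the RNase inhibitor encoded by Rnh1 binds RNase A family enzymes tightly in the cytosol and blocks them. RNase T2 belongs to another family, works at acidic pH in lysosomes and cuts single-stranded RNA, and its products feed nucleotide recycling and the endosomal RNA sensors TLR8 and TLR13.

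In GRCm39, the build to which the authors mapped the reads, Ang lies at chr14:51328534-51341074 and Rnase4 at chr14:51328534-51343608, both on the plus strand and starting at the same base. Rnh1 lies at chr7:140740235-140752775 on the minus strand, Rnaset2a at chr17:8334277-8366929 on the minus strand and Rnaset2b at chr17:7238033-7278698 on the plus strand. The coding sequence of Ang spans 145 codons, that of Rnase4 148, and that of Rnh1 456, stop codons left out. In the merged GENCODE M39 transcripts Ang and Rnase4 share 1387 exonic bases, none of them in a coding exon.

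**Figure D1:**
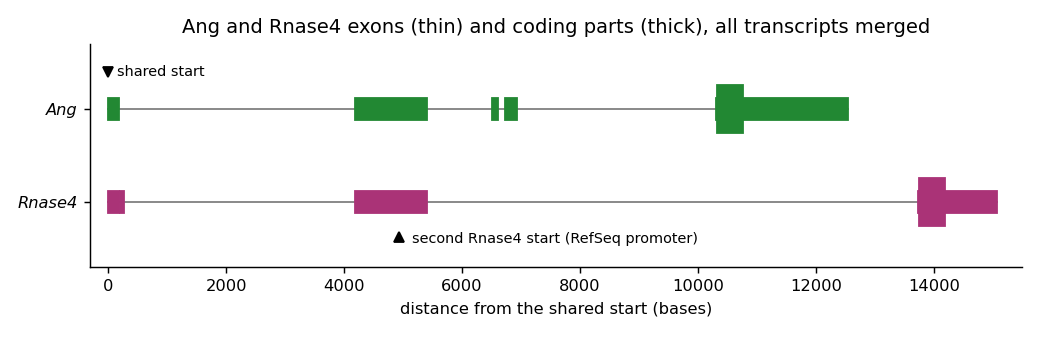
Exons (thin boxes) and coding parts (thick boxes) of Ang and Rnase4 from GENCODE M39, all transcripts merged, against the distance in bases from the start they share. Both genes begin with the same exon, Rnase4 has a second RefSeq start 4923 bases downstream (triangle), and each has its own coding exon.

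The 250 bases upstream of that common start are a single sequence serving both genes, and they are shown because both genes were higher together in optimized libraries. They are followed by the 250 bases upstream of the second Rnase4 start. The letters are from the RefSeq promoter table (GRCm38.p6), and each matched GRCm39 exactly at 1 place, on the plus strand at chr14:51328284-51328533 and chr14:51333207-51333456. Capitals mark CAGAC, a core of SMAD-binding elements, or its reverse complement GTCTG.

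Ang and Rnase4, common start: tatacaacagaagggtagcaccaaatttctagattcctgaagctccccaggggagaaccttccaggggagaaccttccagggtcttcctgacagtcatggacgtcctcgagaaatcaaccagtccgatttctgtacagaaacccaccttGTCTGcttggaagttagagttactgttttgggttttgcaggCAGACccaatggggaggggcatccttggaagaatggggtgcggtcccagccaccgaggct
Rnase4, second start: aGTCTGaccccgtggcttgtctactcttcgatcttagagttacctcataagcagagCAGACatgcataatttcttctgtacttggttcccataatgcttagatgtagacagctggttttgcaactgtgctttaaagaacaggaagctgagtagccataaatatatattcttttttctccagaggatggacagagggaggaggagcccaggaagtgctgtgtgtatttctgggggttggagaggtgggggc

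The common promoter held CAGAC on either strand 2 times, beginning at -101 and -60 from the start, and the second Rnase4 promoter 2 times, at -249 and -194. Among all 32851 promoters searched, 42.2% held these letters, so their presence is common. GGCGC, another SMAD-bound element, was in neither upstream sequence and in 32.0% of promoters. The common promoter also held GGAAG, an ETS core, 5 times (64.1% of promoters hold it) and CCAAT 1 time (33.8%), and had no TATAAA (12.4%), no GGGCGG (32.7%) and no GAGGAAGT, a PU.1-type site that contains GGAAG (2.44%). All motifs were searched on both strands of the 250 upstream bases. A match describes the letters only.

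Ang and Rnase4 were the genes of the 5 with the larger differences between conditions. Levels are given as CPM (read counts scaled to library depth with TMM factors), and as FPKM (fragments scaled to transcript length and library depth, as deposited) where genes are compared. The Ang level was 18.7, 24.55 and 24.1 CPM in control libraries 1 to 3 and 124.6, 171.2 and 166.3 CPM in optimized libraries 1 to 3. Every optimized library was above every control library, and optimized library 1 was the lowest of its group. The mean went from 22.5 ± 3.25 CPM to 154.0 ± 25.6 CPM (SD, n = 3 each), a fitted 6.85-fold difference or 2.78 ± 0.15 on the log2 scale (SE). These levels rest on 428 to 658 reads per control library and 2631 to 4020 per optimized library.

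The Rnase4 level was 60.8, 74.5 and 71.2 CPM in control libraries 1 to 3 and 427.8, 558.9 and 523.5 CPM in optimized libraries 1 to 3. The groups were again apart, and the libraries fell in the same order as for Ang, with optimized library 1 lowest and library 2 highest among the optimized ones. The mean went from 68.8 ± 7.15 to 503.4 ± 67.8 CPM (SD, n = 3 each), a fitted 7.32-fold difference or 2.87 ± 0.13 (log2, SE). By the size of the log2 fold change Rnase4 stood at place 113 and Ang at place 128 of 14618 tested genes. By CPM, a scale that favours long transcripts, Rnase4 moved from place 2717 in control to place 198 in optimized libraries, and Ang from 6414 to 1001.

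Ang and Rnase4 differed little in level per length. Mean FPKM was 28.6 ± 3.93 for Ang and 35.0 ± 3.65 for Rnase4 in control libraries, and 177.7 ± 25.0 and 232.0 ± 23.9 in optimized libraries (SD, n = 3). The Ang to Rnase4 ratio of FPKM was 0.771, 0.826 and 0.848 in control libraries and 0.729, 0.767 and 0.795 in optimized libraries. The ranges of the groups overlapped, and the mean ratio of 0.764 ± 0.0332 in optimized libraries was 0.937 times that of 0.815 ± 0.0394 in control libraries. Both genes therefore differed between conditions by nearly the same factor.

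Reads on shared exons limit how separately Ang and Rnase4 were measured. Division of the deposited counts by FPKM gave the gene lengths behind the FPKM values, 797 bases for Ang and 1996 for Rnase4. The Rnase4 length equals the sum of the 177-base first exon, 474 bases from its second start to the end of that exon, and the 1345-base coding exon. The first exon would be 22.2% of the Ang length and 8.87% of the Rnase4 length. How reads on it were counted, for both genes, for 1 or for neither, is not given in the sources used here. The 9 listed Ugt1a genes, which share exons too, had 2494 to 3458 reads each in control library 1. What this says of the setting was not tested. If every Ang read had also been counted on Rnase4, 962 to 1286 Rnase4 reads per control library and 6405 to 9108 per optimized library would remain. Their mean level went from 46.4 to 349.4 CPM, 7.54-fold. These reads may not all be of Rnase4 transcripts, as the 474 bases lie in an exon that GENCODE M39 gives to Ang as well.

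**Figure D2:**
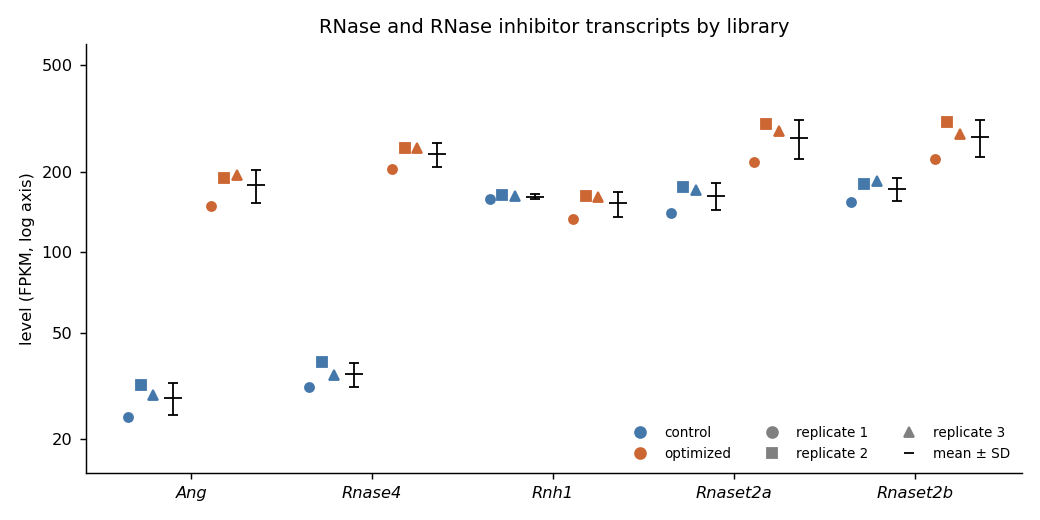
Level in FPKM (log axis) of the 5 genes in each control (blue) and optimized (orange) library, with the mean and SD of 3 libraries in black and a marker shape for each replicate number. Ang and Rnase4 lie between 24.3 and 38.8 FPKM in control libraries and at or above 149.1 FPKM in optimized libraries, Rnh1 overlaps between the groups, and both RNase T2 copies are higher in optimized libraries.

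Rnh1, whose product inhibits Ang and Rnase4, did not separate the conditions. Its level was 307.3, 317.7 and 336.8 CPM in control libraries and 282.1, 370.7 and 347.5 CPM in optimized libraries. The groups overlapped, with the lowest and the highest library both in the optimized group. The means were 320.6 ± 14.96 and 333.4 ± 45.9 CPM (SD, n = 3 each), and the log2 fold change was 0.056 ± 0.11 (SE). The sign of this value turned with the scaling, to -0.079 with library size alone and -0.091 on log2(FPKM + 1).

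Set against Rnh1 in the same library by FPKM, the transcripts of Ang and Rnase4 went from below to above that of their inhibitor. The Ang to Rnh1 ratio of FPKM was 0.154, 0.195 and 0.181 in control and 1.12, 1.17 and 1.21 in optimized libraries. The Rnase4 to Rnh1 ratio was 0.2, 0.237 and 0.213 in control and 1.53, 1.52 and 1.52 in optimized libraries. Rnase4 thus kept nearly the same ratio in all optimized libraries although its own level was lower in library 1. Together Ang and Rnase4 amounted to 0.393 ± 0.0392 of the Rnh1 level in control and 2.69 ± 0.0414 in optimized libraries (SD, n = 3). Reads on their shared exons may have been counted for both genes in this sum, as their handling is not given. These ratios are of transcripts, and protein was not measured in these libraries. By CPM, which is not scaled to length, Rnase4 in optimized libraries was also above Rnh1, with means of 503.4 and 333.4. Ang, with a mean of 154.0 CPM there, stayed below Rnh1. For Ang the crossing thus rests on the lengths behind FPKM, 797 bases for Ang and 2015 for Rnh1. Merged GENCODE M39 exons give 3919 and 5372 bases.

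**Figure D3:**
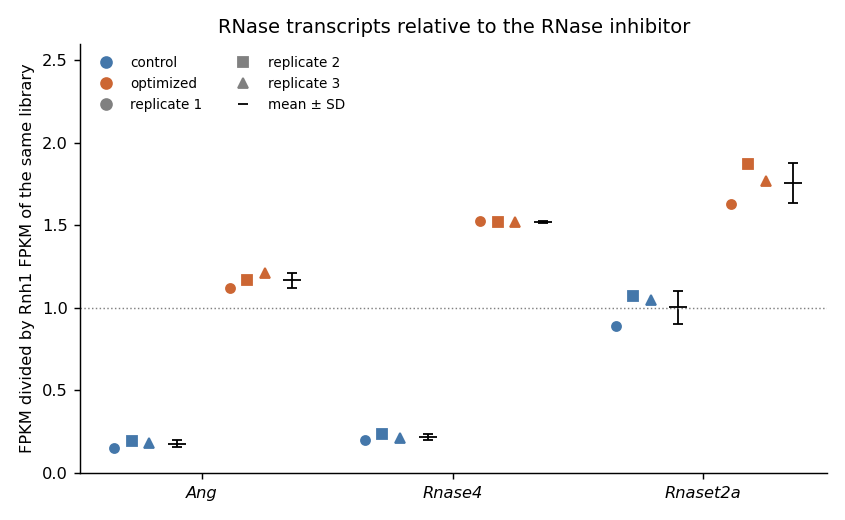
FPKM of Ang, Rnase4 and Rnaset2a divided by the Rnh1 FPKM of the same library, for control (blue) and optimized (orange) libraries, with the mean and SD of 3 libraries in black and a dotted line at a ratio of 1. Ang and Rnase4 lie at or below 0.237 in control libraries and at or above 1.12 in optimized libraries, and Rnaset2a goes from about 1 to 1.76.

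Rnaset2a and Rnaset2b were already abundant in control cells and differed less. The Rnaset2a level was 156.6, 194.5 and 203.2 CPM in control and 263.6, 396.6 and 351.3 CPM in optimized libraries. The Rnaset2b level was 150.5, 174.6 and 191.7 CPM in control and 237.2, 353.9 and 299.5 CPM in optimized libraries. For both copies every optimized library was above every control library, and library 1 was the lowest of each group. The log2 fold changes were 0.87 ± 0.15 for Rnaset2a and 0.79 ± 0.15 for Rnaset2b (SE), or 1.82-fold and 1.72-fold. The Rnaset2a to Rnaset2b ratio of FPKM was 0.941 ± 0.0332 in control and 0.996 ± 0.029 in optimized libraries (SD, n = 3).

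These values cannot be read as measurements of separate genes. The coding sequences of the first listed transcript of each copy in GENCODE M39 had 0 differences over 777 bases, so no read within them tells the copies apart. Over the whole of these transcripts, 68.7% of all windows of 100 bases in Rnaset2a and 69.1% of those in Rnaset2b also occurred in a transcript of the other copy. The similarity runs on upstream of the start, as 205 bases of each RefSeq promoter show (chr17:8366665-8366869, minus strand, upstream of the second Rnaset2a start, and chr17:7246054-7246258, plus strand, next to the Rnaset2b start). Capitals mark the single position at which they differ.

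Rnaset2a: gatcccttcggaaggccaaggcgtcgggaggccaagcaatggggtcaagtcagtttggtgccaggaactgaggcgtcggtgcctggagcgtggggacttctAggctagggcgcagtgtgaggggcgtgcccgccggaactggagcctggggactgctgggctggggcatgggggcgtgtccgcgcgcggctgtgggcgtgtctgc
Rnaset2b: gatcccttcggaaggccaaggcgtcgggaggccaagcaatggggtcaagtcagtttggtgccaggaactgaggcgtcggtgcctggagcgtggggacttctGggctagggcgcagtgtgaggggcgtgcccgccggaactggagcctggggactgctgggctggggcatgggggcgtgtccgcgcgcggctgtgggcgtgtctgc

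The near equal levels of the copies in each library therefore also depend on how reads with more than 1 place in the genome were counted, which is not given in the sources used here. By FPKM in control libraries the order of mean levels was Rnaset2b (172.4 ± 16.3), Rnaset2a (162.4 ± 19.1), Rnh1 (161.5 ± 3.20), Rnase4 and Ang. The first 3 lay within their spreads of each other, as did Rnase4 and Ang, although Ang was below Rnase4 in each control library. In optimized libraries the order was Rnaset2b (269.0 ± 42.5), Rnaset2a (268.3 ± 44.5), Rnase4, Ang and Rnh1 (152.2 ± 16.2). There the group ranges of Rnaset2a, Rnaset2b and Rnase4 overlapped, and so did those of Ang and Rnh1. Within each optimized library, however, Rnase4 was below both RNase T2 copies, and Ang was above Rnh1. Of the FPKM of the 5 genes together, Ang and Rnase4 made up 5.09% and 6.25% in control and 16.2% and 21.2% in optimized libraries, while the share of Rnh1 went from 28.9% to 13.9%. Reads shared by Ang and Rnase4, or by the RNase T2 copies, may have been counted for both genes in this total.

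Of all 14618 genes tested, 14.7% were called higher and 15.2% lower in optimized libraries (edgeR quasi-likelihood test, Benjamini-Hochberg adjusted p under 0.05), and in 21.4% every optimized library was above every control library. In 4 of the 5 chosen genes the groups were apart in this way. As the genes were chosen by this contrast, nothing is read from that count. Total counts ranged from 20628148 to 27261839 per library. Summed levels of 8 microglial markers were 6450 to 6560 CPM in control and 12000 to 14300 CPM in optimized libraries. In bulk RNA, fewer cells of a type and less RNA per cell cannot be told apart.

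Some markers of other cells moved with the conditions or with 1 library. The sum of 6 endothelial markers was 81.5 to 97.1 CPM in control and 274 to 352 CPM in optimized libraries, almost all of it Flt1, while Cldn5 had at most 2 reads in any library. The sum of 8 fibroblast and mural markers was 35.4 to 49.5 CPM in control and 31.3 to 153 CPM in optimized libraries, with optimized library 3 highest. Without that library the log2 fold changes were 2.72 for Ang, 2.84 for Rnase4, 0.84 for Rnaset2a and 0.78 for Rnaset2b, close to the values with it. The sum of 6 oligodendrocyte markers was 135 to 151 CPM in control and 164 to 202 CPM in optimized libraries, and its part in the results was not tested. The sum of 7 astrocytic markers was 31.7 to 33.9 CPM in control and 18.4 to 21.9 CPM in optimized libraries. Most of that difference was Aldh1l1, with means of 16.5 and 4.64 CPM. Slc1a3, Slc1a2 and Aqp4 were also lower on average, while Gfap (4.18 and 4.68), Aldoc and Chi3l1 were higher. The sum of 6 neuronal markers was 3.07 to 4.72 and 5.3 to 6.34 CPM. There Nefl (0.227 and 1.14) and Tubb3 (0.996 and 1.62) differed most, and Syt1 and Snap25, at 2 reads or fewer, were lower. Both sums thus differed without overlap. The part of both in the results was not tested either. No marker of these lists was at 0 in every library.

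The profile of Ang over the 6 libraries was closest to that of Rnase4, and the reverse. The search covered 9834 tested genes with a mean of at least 5 CPM, with predicted genes (symbols of Gm and digits, or with Rik) left out. The measure was the Euclidean distance between log2 CPM values after subtraction of each gene's mean, which was 0.176 between Ang and Rnase4, and 0 genes were closer to either. As the genes share exons, their reads are not independent. The next genes by distance from Ang were Serpine2 (0.291), a protease inhibitor, F11r (0.333), a junctional adhesion molecule, Ch25h (0.379), cholesterol 25-hydroxylase, Egln3 (0.389), an oxygen-sensing prolyl hydroxylase, and Ptgs1 (0.399), a cyclooxygenase. Those next to Rnase4 were F11r (0.253), Serpine2 (0.317), Egln3 (0.328), the integrin subunit gene Itgb5 (0.339) and Whrn (0.342), a scaffold protein gene. All differ between conditions by a factor like that of Ang and Rnase4, with log2 fold changes from 2.61 for Ptgs1 to 3.1 for Itgb5, so the distances mostly express that 1 contrast.

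**Figure D4:**
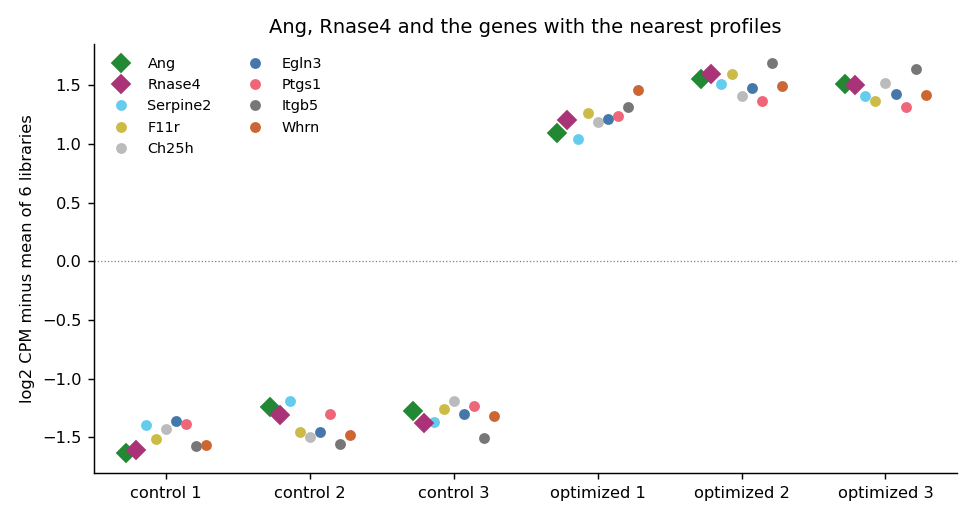
Log2 CPM minus the mean of the 6 libraries, for Ang and Rnase4 (diamonds) and the genes nearest to them in this measure (circles), by library. All points lie below 0 in the 3 control libraries and above 0 in the 3 optimized libraries.

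Most other RNase A family genes had no counted reads. Reads with more than 1 place in the genome may be missing from these counts, as their handling is not given. Of 18 further members listed in the tables, 13 had 0 reads in every library, and Rnase2b, Rnase10, Rnase12 and Ear2 had 1, 13, 2 and 2 reads in all 6 libraries together. The exception was Rnase6, an antimicrobial RNase of macrophages encoded at chr14:51361365-51369644, which starts 32831 bases from the common start of Ang and Rnase4. It had 58, 51 and 70 reads in control libraries and 11, 8 and 6 in optimized libraries, with no overlap. Rnase6 fell 6.17-fold, with a log2 fold change of -2.63 ± 0.33 (edgeR adjusted p = 0.00019), opposite in sign to its neighbours. With limma the value was -0.79 on log2(FPKM + 1) and -2.16 on log2(FPKM + 0.1), where the added constant shrinks differences of a gene this low. Its level was low, at 2.39 ± 0.271 CPM in control and 0.384 ± 0.121 CPM in optimized libraries (SD, n = 3). Of the 12 genes of the family in this 248 kb stretch, only Ang and Rnase4 had more than 204 reads in all, and 6 had none. RefSeq places 7 tRNA genes between Rnase12 and Ang.

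In 6 lists of genes with related roles, most tested genes were not called. Counted with Rnase6, 85 listed genes were tested, of which 8 were called higher and 15 lower, with a median log2 fold change of -0.0671 against 0.00787 over all tested genes. Over all 14618 tested genes 14.7% were called higher and 15.2% lower, the shares to set beside this count and those of each list below. The lists were not tested as sets. The count of listed genes called higher was not stable. It was 4 without control replicate 1 or 2, 3 without control replicate 3 or optimized replicate 3, and 13 without optimized replicate 1. With library size alone it was 3, against 27 called lower, and the median of all genes was then -0.121. Angel1, Pld3 and Dnase2a were called higher under every alternative run.

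**Figure D5:**
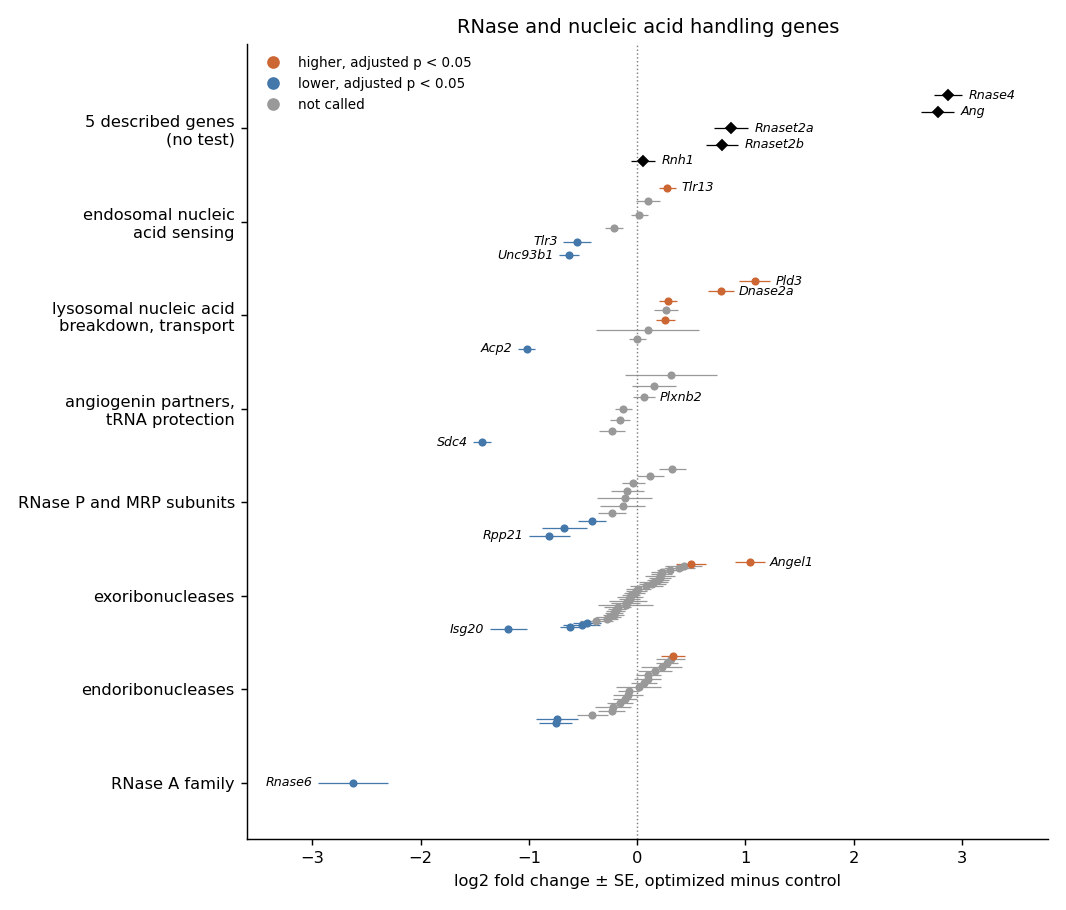
Log2 fold change, optimized minus control, with its SE for tested genes of 7 lists of RNase and nucleic acid handling genes, coloured by call (edgeR, adjusted p under 0.05), and for the 5 described genes (black, no test). Rnase6, Sdc4, Isg20 and Acp2 lie to the left, Pld3, Angel1 and Dnase2a to the right, and most others near 0.

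Among genes for partners of angiogenin and enzymes that protect tRNAs, 0 of 7 were called higher and 1 lower, with a median log2 fold change of -0.126. Plxnb2, encoding plexin-B2, a receptor for angiogenin, was abundant in all libraries, at 807.3 ± 60.4 CPM in the control group and 841.5 ± 64.4 CPM in the optimized group (SD, n = 3). Its log2 fold change was 0.06 ± 0.10 (edgeR adjusted p = 0.72), and it turned to -0.065 with library size alone. Sdc4, for the heparan sulfate proteoglycan syndecan-4, had 2999, 3177 and 3315 reads in control and 1002, 1135 and 940 in optimized libraries. Sdc4 fell 2.7-fold, with a log2 fold change of -1.435 ± 0.081 (edgeR adjusted p = 1e-06). The tRNA methyltransferase genes Nsun2 (-0.16) and Trdmt1 (0.16), the RNA-binding protein gene Ybx1 (-0.23), the tRNA CCA-adding enzyme gene Trnt1 (-0.13) and Egfr (0.31, at 14 to 47 reads per library) did not pass the test, with edgeR adjusted p from 0.19 to 0.64. Without optimized replicate 2, Ybx1 passed at -0.34 (edgeR adjusted p = 0.049). With library size alone both Ybx1 (-0.36, edgeR adjusted p = 0.013) and Nsun2 (-0.29, edgeR adjusted p = 0.034) passed, and on FPKM limma called Nsun2 in all settings run (-0.30 to -0.28, adjusted p from 0.03 to 0.042) and Ybx1 with a pseudocount of 0.1 (-0.38, adjusted p = 0.049, or 0.026 with a mean FPKM of at least 1).

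Of 19 tested genes for other endoribonucleases, 1 was called higher and 3 lower, with a median of -0.0764. Genes of the Regnase family, which degrade inflammatory mRNAs, differed among themselves. Zc3h12c fell 1.68-fold (edgeR adjusted p = 0.0043) and Zc3h12d 1.67-fold (adjusted p = 0.016), while Zc3h12a had a log2 fold change of 0.27 ± 0.10 (adjusted p = 0.072). The call of Zc3h12d was lost without control replicate 1 (edgeR adjusted p = 0.063) or 3 (0.066). Smg6, for the endonuclease of nonsense-mediated decay, was called higher by 1.26-fold (log2 fold change 0.33, edgeR adjusted p = 0.045), a call lost without any 1 of the control libraries or optimized replicate 1 or 3 (0.22 to 0.35, adjusted p from 0.072 to 0.15). Rnasek, the other gene at the upper end, had a log2 fold change of 0.31 ± 0.14 (adjusted p = 0.12), and without optimized replicate 1 it reached 0.44 (edgeR adjusted p = 0.0015).

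Of 34 exoribonuclease and deadenylase genes tested, 2 were called higher and 4 lower, with a median of -0.0628. Isg20, an interferon-induced exonuclease, had 191, 177 and 269 reads in control and 72, 82 and 88 in optimized libraries. Isg20 fell 2.28-fold (edgeR adjusted p = 0.00054). Usb1, which trims U6 RNA, fell 1.54-fold (edgeR adjusted p = 0.00066). Exosc2, of the RNA exosome, fell 1.42-fold (edgeR adjusted p = 0.048), a call that was lost when any library other than optimized replicate 2 was left out (0.072 to 0.16). Pnpt1, a mitochondrial polynucleotide phosphorylase named after its values were seen as the remaining call, fell 1.38-fold (log2 fold change -0.46, edgeR adjusted p = 0.025). Without any 1 of the control libraries its log2 fold change was -0.48 to -0.45, but the call was lost (edgeR adjusted p from 0.068 to 0.072). Angel1, a relative of the CCR4 deadenylases, rose 2.06-fold (edgeR adjusted p = 0.00028) at a low level of 0.747 and 1.41 FPKM. Noct, a circadian member of that family, rose 1.41-fold (log2 fold change 0.50, edgeR adjusted p = 0.021). Without control replicate 1 or 3 or optimized replicate 3 its log2 fold change was 0.43 to 0.46, but the call was lost (edgeR adjusted p from 0.074 to 0.092). Pan2, a subunit of a poly(A) nuclease, had a log2 fold change of 0.43 ± 0.17 (adjusted p = 0.086), and 0.56 without optimized replicate 2 (edgeR adjusted p = 0.019).

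Of 10 tested subunit genes of RNase P and RNase MRP, which process precursor tRNA and ribosomal RNA, 0 were called higher and 3 lower, with a median of -0.124. Rpp21 fell 1.75-fold (edgeR adjusted p = 0.0086), Pop7 1.6-fold (0.035) and Rpp30 1.33-fold (0.038). The call of Pop7 was lost without control replicate 2 or 3 or optimized replicate 3 (edgeR adjusted p from 0.1 to 0.14), and that of Rpp30 when any 1 library was left out (0.058 to 0.15). At the upper end Rpp38 had a log2 fold change of 0.32, Rpp14 0.12 and Pop4 -0.035, none of which passed the test (edgeR adjusted p = 0.079, 0.52 and 0.85).

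The lysosomal genes for nucleic acid breakdown and transport, the compartment of RNase T2, held 4 of 8 called higher and 1 lower, with a median of 0.263. Pld3, a lysosomal exonuclease for single-stranded nucleic acids, had 18033, 19479 and 24463 reads in control and 29339, 48145 and 37756 in optimized libraries. Pld3 rose 2.12-fold (log2 fold change 1.09 ± 0.14, edgeR adjusted p = 0.0003), and its relative Pld4 had a log2 fold change of 0.27 ± 0.11 (adjusted p = 0.1), which reached 0.37 without optimized replicate 1 (edgeR adjusted p = 0.0016). Dnase2a, the acid DNase, rose 1.71-fold (edgeR adjusted p = 0.00066). The lysosomal nucleoside transporter gene Slc29a3 rose 1.22-fold (edgeR adjusted p = 0.024) and Lamp2, for a lysosomal membrane protein, 1.2-fold (0.047). The call of Slc29a3 was lost without control replicate 2 or 3 or optimized replicate 3 (edgeR adjusted p from 0.077 to 0.12), and that of Lamp2 without any library other than optimized replicate 1 (0.1 to 0.19). Acp2, an acid phosphatase, fell 2.03-fold, from 329.0 ± 4.50 to 162.3 ± 8.22 CPM (SD, n = 3; edgeR adjusted p = 8.9e-06). Sidt2, a transporter of nucleic acids into lysosomes, had 110.4 and 110.5 CPM in the groups, and Acp5 15 to 52 reads per library, and neither passed the test (edgeR adjusted p = 0.99 and 0.91).

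Among 6 genes of endosomal nucleic acid sensing, 1 was called higher and 2 lower, with a median of -0.0951. Tlr13, a mouse sensor of bacterial ribosomal RNA, rose 1.21-fold (edgeR adjusted p = 0.026), a call lost without any 1 of the control libraries or optimized replicate 3 (0.08 to 0.11). Tlr3, a sensor of double-stranded RNA, fell 1.47-fold (edgeR adjusted p = 0.0084), and Unc93b1, which carries these receptors to endosomes, fell 1.55-fold from 639.5 ± 28.4 to 412.9 ± 30.3 CPM (SD, n = 3; edgeR adjusted p = 0.00056). The single-stranded RNA receptor genes Tlr7 and Tlr8 and the DNA receptor gene Tlr9 had log2 fold changes of -0.21, 0.02 and 0.10, which did not pass the test (edgeR adjusted p = 0.089, 0.88 and 0.56), although Tlr7 did without optimized replicate 1 (-0.24, adjusted p = 0.03). Tlr7 also passed with DESeq2 (-0.21, adjusted p = 0.047), with library size alone (-0.34, adjusted p = 0.036 by edgeR) and with limma at a mean FPKM of at least 1 (-0.35, adjusted p = 0.029).

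The difference of the 5 genes was also set against reference genes of the same library, by ratios of counts. Relative to Gapdh, whose own product is a glycolytic enzyme, the mean ratio of optimized to control was 5.11 for Ang, 5.46 for Rnase4, 1.35 for Rnaset2a, 1.28 for Rnaset2b and 0.775 for Rnh1. Relative to Ywhaz, a 14-3-3 protein gene, it was 6.36 for Ang, 6.77 for Rnase4, 1.69 for Rnaset2a, 1.59 for Rnaset2b and 0.961 for Rnh1. The order of the genes was the same on both scales. With Gapdh the groups of Rnh1 did not overlap, at 1.37, 1.36 and 1.26 in control against 1.08, 0.992 and 1.01 in optimized libraries, while with Ywhaz they did. By CPM the groups of Rnh1 overlapped as well, with means of 320.6 in control and 333.4 in optimized libraries. A ratio also carries any difference of the reference gene itself.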

How the data were processed

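Total RNA of 3 control and 3 optimized samples of cultured microglia was sequenced with paired ends. The authors mapped reads to mm39 with HISAT2, counted them with featureCounts (versions, annotation and handling of overlapping or multiply mapped reads are not given in the sources used here) and deposited raw counts for 41079 genes. The authors also deposited FPKM values, in which count divided by FPKM gave gene lengths within 0.01 base of a whole number for 99.95% of genes with reads. The members and lists were chosen with earlier results of these data known.

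Counts were filtered by filterByExpr (14618 genes), scaled by TMM and compared without covariates by the edgeR 4.0.16 quasi-likelihood test in R 4.3.3, with Benjamini-Hochberg adjustment (threshold 0.05). The common dispersion was 0.0164. Count totals of 20628148 to 27261839 leave genes with few reads imprecise. Replicates differed by more than sampling noise. Named genes were the 5 members, RNase A genes with reads, all tested genes of 3 lists (angiogenin partners, lysosomal, sensing), from the other lists the 3 highest and 3 lowest log2 fold changes, and the 5 genes nearest to Ang and to Rnase4. Coordinates are those of GENCODE M39, and promoter letters those of RefSeq. Alternatives were RLE factors, library size alone, DESeq2 1.42.0, other filters, a replicate block, each library left out, and limma 3.58.1 on log2(FPKM + 1) or log2(FPKM + 0.1). The steps were tested on simulated counts. The values of 1 listed gene, included in the counts of calls, are not reported here.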

Additional observations from a re-analysis of the deposited data

How the results depend on the processing

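The log2 fold changes of Ang (2.59 to 2.91), Rnase4 (2.69 to 2.98), Rnaset2a (0.71 to 1.02) and Rnaset2b (0.63 to 0.92) kept their sign under all alternatives run, and the Rnh1 value lay between -0.091 and 0.16. None of these moved by more than the spread between libraries. Leaving out 1 library at a time gave ratios of optimized to control of 0.913 to 0.959 for Ang to Rnase4 and of 1.04 to 1.08 for Rnaset2a to Rnaset2b. At this depth the members had 428 to 13128 reads per library, while Rnase6 had 6 to 70.

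Of all genes tested, 2142 were called higher and 2218 lower. With library size alone the calls were 1513 and 3168. Limma on FPKM called 1307 genes higher with a pseudocount of 1, 1312 with 0.1, and 1170 with 0.1 and a mean FPKM of at least 1, and 2638, 2664 and 2923 lower. Leaving out 1 library gave 1603 to 2591 higher and 1646 to 2643 lower. The listed genes called higher numbered 8 in the analysis reported, 3 with library size alone or with any of the 3 limma settings, 4 without a filter on low counts, and 3 to 13 when 1 library was left out. Those called lower numbered 15, but 27 with library size alone and 23 when limma was run on log2(FPKM + 0.1), with and without the FPKM minimum. Leaving out 1 library gave 11 to 16. The causes were not tested.

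Same-numbered libraries were not shown to be pairs, as the correlations of their deviations were 0.35, -0.024 and 0.21. With the replicate block 2401 genes were called higher and 2523 lower, and 12 listed genes higher and 17 lower. Of the named genes Rnasek (0.30, edgeR adjusted p = 0.031), Pan2 (0.41, 0.018) and Pld4 (0.26, 0.043) were called with the block but not without it, while the log2 fold changes were 2.77 for Ang, 2.87 for Rnase4, 0.048 for Rnh1, 0.86 for Rnaset2a and 0.77 for Rnaset2b.

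In all, 9 genes that did not pass the test changed sign. With library size alone the log2 fold changes were -0.065 for Plxnb2, -0.035 for Acp5, -0.12 for Sidt2, -0.11 for Tlr8, -0.024 for Tlr9 and -0.012 for Rpp14. With limma on log2(FPKM + 1) they were -0.079 for Plxnb2, -0.011 for Acp5, -0.13 for Sidt2, -0.11 for Tlr8, -0.039 for Tlr9 and -0.020 for Rpp14. On log2(FPKM + 0.1) they were -0.080, -0.018, -0.14, -0.12, -0.044 and -0.024 for the same genes and -0.002 for Trdmt1, and with the FPKM minimum -0.080, -0.14, -0.12, -0.044 and -0.024 for Plxnb2, Sidt2, Tlr8, Tlr9 and Rpp14. Without a filter they were -0.020 for Sidt2 and -0.001 for Tlr8, and with DESeq2 -0.001 for Sidt2. Leaving out 1 library gave -0.10 to 0.56 for Egfr, -0.063 to 0.25 for Trdmt1, -0.42 to 0.60 for Acp5, -0.034 to 0.027 for Sidt2, -0.013 to 0.031 for Tlr8, -0.006 to 0.15 for Tlr9 and -0.12 to 0.032 for Pop4. Rnase6, Acp5, Egfr, Trdmt1 and Zc3h12d have no value with the FPKM minimum, nor Rnase6 with at least 10 counts in every library, as these filters removed them.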
